A study of Mus musculus with 6 samples.

Results

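The genes described here are 35 genes of glycolysis and of the response to low oxygen, chosen by a list of names: 15 glycolytic enzymes, 3 glucose and lactate transporters, and 17 genes that sense low oxygen, are induced by it or steer pyruvate. A gene was measured where the platform annotation gave it at least 1 probe set with no other gene symbol, which held for 32 of the 35, through 72 probe sets. The brightest probe set over all 6 arrays stood for a gene. Gpi1, Eno1 and Bnip3l have no such probe set in that annotation and were not analysed here. The whole table held 18193 genes. RNA came from whole lungs of mice at postnatal day 15, with 3 control lungs whose genotype label reads wildtype and 3 lungs of littermates labelled Foxa2-/-, each on 1 Affymetrix array. Foxa2, a forkhead factor, controls gene expression in airway and alveolar epithelium, and the series asks what its loss does to type 2 inflammation and to goblet cells. The strain label is the same in all 6 samples: it reads SPC(+)Cre(-) and gives doxycycline (Dox) from embryonic day 6.5 to 12.5, so it does not separate the groups, and by it the controls had Dox too. The alleles are not spelled out in the labels. The model is known as a deletion in lung epithelium under the surfactant protein C promoter, in which other lung cells keep Foxa2. Whether every array stands for an animal of its own is left unsaid, so p-values reflect only the scatter of these 6 samples, part of which could be technical.

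Glycolysis turns glucose into pyruvate and yields a little ATP without oxygen. When oxygen falls, prolyl hydroxylases stop marking the HIF alpha subunits for destruction. HIF then pairs with ARNT, binds a short DNA core and switches on glucose transporters, most glycolytic enzymes, lactate dehydrogenase A, pyruvate dehydrogenase kinase and vascular growth factors. Activated macrophages and dividing cells also run glycolysis hard, with oxygen present. In the lung, the HIF-2 alpha subunit Epas1 is best known from endothelium and type II cells, and Hk3 is the hexokinase of myeloid cells.

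Foxa2 read 10.28, 10.56 and 10.28 in control replicates 1 to 3 and 7.72, 5.38 and 5.13 in null replicates 1 to 3, where null stands for the label Foxa2-/-. All values are log2 signal after RMA, the method the submitters name, and differences are null minus control. The difference of -4.30 (SE 0.66) had a limma adjusted p of 0.0599. Null replicate 1 kept the most Foxa2 signal, and limma's array weights gave it 0.225, against 0.813 to 1.76 for the other arrays. A title number of unknown meaning is common to 3 samples, which are control replicate 2 with null replicates 2 and 3. The lung markers were bright: the array means of 10 epithelial markers, among them Sftpc, Scgb1a1 and Ager, lay between 13.61 and 13.71 in controls and between 13.71 and 13.83 in null lungs. None was dim, meaning a mean signal below the 25th percentile of all genes. All 32 genes of the list lay above that percentile and 26 lay above the median.

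In the lungs labelled Foxa2-/-, no gene of glycolysis or of the hypoxia response passed the test, but the 16 glycolytic enzymes and transporters measured from the list had a positive difference, while its other genes were divided between both signs. None of the 32 genes was called higher or lower by limma at a Benjamini-Hochberg adjusted p under 0.05, where 0.572% of all genes were called (0.473% higher and 0.0989% lower). The smallest adjusted p was 0.1075, for Ldhb. At an unadjusted p under 0.05, 10 of the 32 were higher and 1 was lower, beside 7.28% and 5.07% of all genes. Every null array lay above all controls in 12 of the 32 (37.5%), beside 10.8% of all genes, and below all controls in 2 (6.25%), beside 8.73%. The difference was positive in 26 of the 32 (50.8% of all genes), and its median was 0.24, against 0.005 over all genes. The list was chosen with earlier results of these data known. Shares set beside those of all genes therefore describe the list and are no independent test of it. In RNA of a whole organ, more or fewer cells of a type and more or less RNA per cell cannot be told apart. This holds for every value below.

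Enzymes and transporters accounted for most of the separated genes. All 13 glycolytic enzymes and all 3 transporters measured had a positive difference, with medians of 0.31 and 0.54, and in 9 of these 16 the null arrays all exceeded the controls. Of the other 16 genes 10 had a positive difference, with a median of 0.05. The null arrays all exceeded the controls in 3 of them and all lay lower in 2. Hk1 and Pfkl were the exceptions to the shared direction under other settings: both were negative within the samples that share a title number, and Pfkl was also negative with array weights and with null replicate 1, control replicate 2 or control replicate 3 left out.

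**Figure D1:**
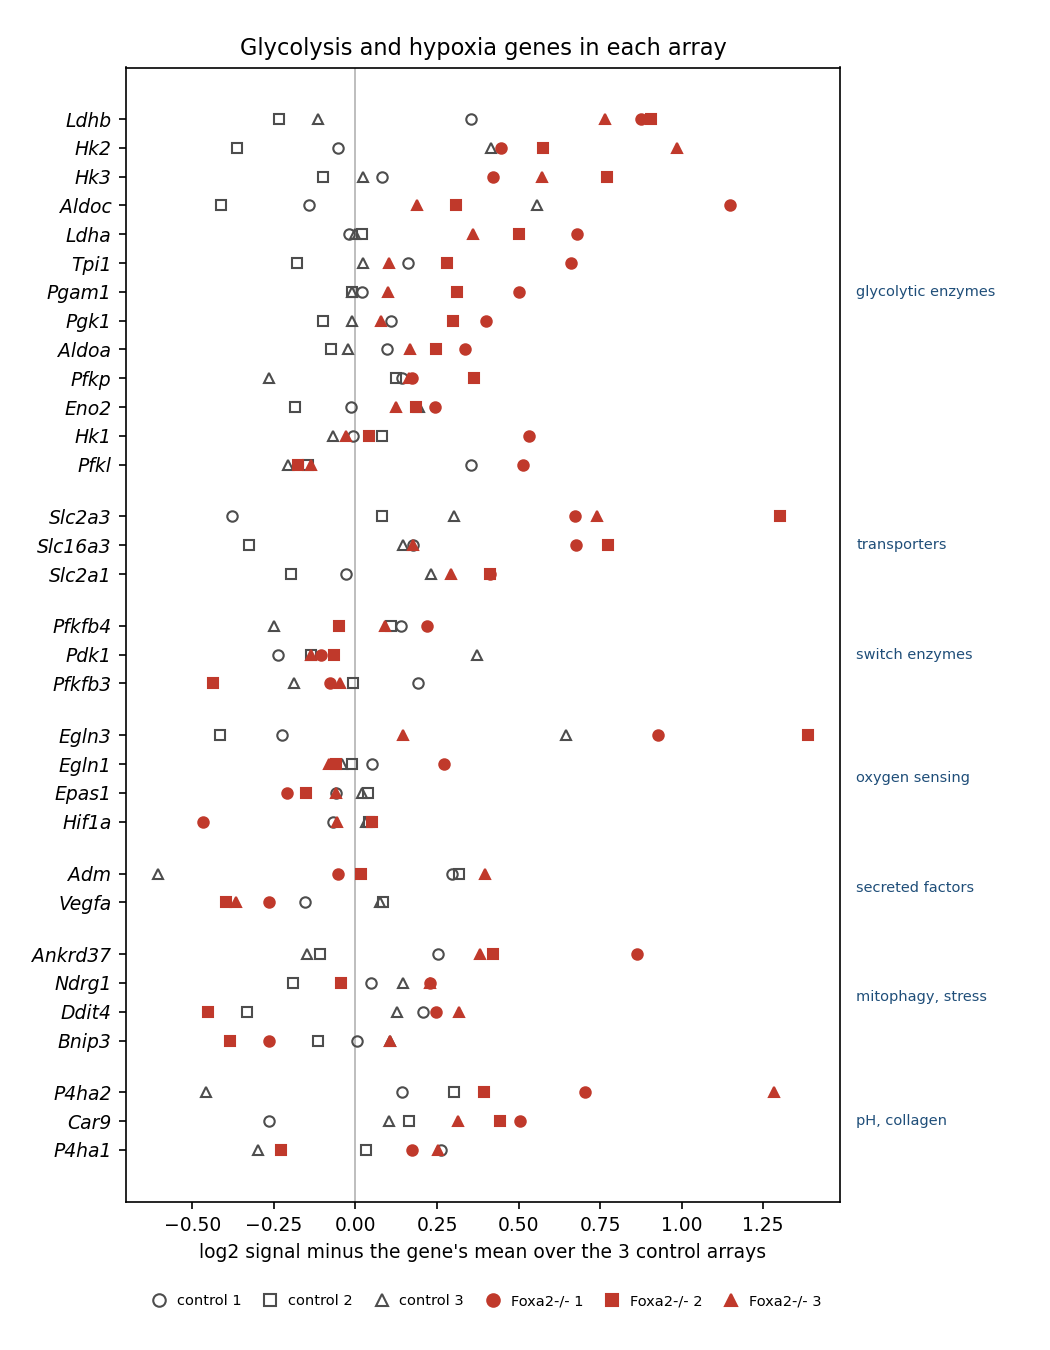
Log2 signal of each of the 32 genes in each array, minus that gene's mean over the 3 control arrays (x axis), with genes grouped by role on the y axis; open grey symbols are controls, filled red symbols are Foxa2-/- lungs, and the symbol shape gives the replicate. Red symbols lie to the right of all open ones for 12 genes, among them Ldha, Ldhb, Hk3 and Slc2a3, and to the left for Vegfa and, by 0.006, Epas1.

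Promoter sequence was read for the core that HIF binds, as a description of the list. The list was chosen for glycolysis and the hypoxia response, so a high share of that core could follow from the choice itself. HIF binds the core ACGTG or GCGTG, and both cores were searched on both strands in the 250 bases before each RefSeq start (assembly GRCm38.p6), with CACGTG counted on each strand. ACGTG stands in 16.6% of all 32851 such regions and before at least 1 start of 22.5% of the 14452 genes on the array that have an entry. Among these genes 29 have an entry, and 19 of them (65.5%) hold it. Either core stands in 38.6% of all regions, in 53.6% of genes on the array and in 27 of the 29 (93.1%). By outcome, ACGTG stands before 9 of the 11 genes whose null arrays all lay higher and before 9 of the 17 whose groups overlap. For either core the counts are 11 of 11 and 15 of 17, so the contrast is narrower under the full definition. ACGTG also stands before 1 start of Vegfa, the only gene with an entry whose null arrays all lay lower. Vegfa is counted through that start alone, which lies further into the gene. The region before its upstream start holds neither core. Neither split by outcome was tested. The match is to letters only, and the arrays carry no data on binding. Slc2a3, Epas1 and Ndrg1 are without an entry.

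Genes with separated groups whose regions are not printed have both cores (Pgam1), GCGTG alone (Pfkp) or ACGTG alone (Aldoa, Hk2, Hk3 and Car9). The 6 regions printed here are examples from further genes with separated groups. They are those of Ldha, with the most matches, Ankrd37, P4ha2 and Slc2a1, with both cores, Ldhb, with GCGTG alone, and Vegfa. Vegfa read lower and has no match before the start printed here but has 2 before its other start. Each printed region is given 5′ to 3′ on the gene's strand and ends at the base before the start, with matched letters in capitals. They are Ldha at chr7:46845554-46845803 (+), Ankrd37 at chr8:45999851-46000100 (-), P4ha2 at chr11:54100674-54100923 (+), Slc2a1 at chr4:119108495-119108744 (+), Ldhb at chr6:142507958-142508207 (-) and Vegfa at chr17:46032378-46032627 (-).
Ldha: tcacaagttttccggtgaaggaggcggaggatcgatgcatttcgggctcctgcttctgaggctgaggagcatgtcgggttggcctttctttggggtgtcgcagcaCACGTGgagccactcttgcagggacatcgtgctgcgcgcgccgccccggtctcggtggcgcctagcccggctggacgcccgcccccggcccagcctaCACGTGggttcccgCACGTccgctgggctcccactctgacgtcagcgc
Ankrd37: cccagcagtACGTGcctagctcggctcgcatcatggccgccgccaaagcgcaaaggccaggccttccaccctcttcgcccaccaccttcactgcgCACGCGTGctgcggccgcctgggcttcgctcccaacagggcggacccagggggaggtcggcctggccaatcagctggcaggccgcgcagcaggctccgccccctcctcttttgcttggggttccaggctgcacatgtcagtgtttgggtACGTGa
P4ha2: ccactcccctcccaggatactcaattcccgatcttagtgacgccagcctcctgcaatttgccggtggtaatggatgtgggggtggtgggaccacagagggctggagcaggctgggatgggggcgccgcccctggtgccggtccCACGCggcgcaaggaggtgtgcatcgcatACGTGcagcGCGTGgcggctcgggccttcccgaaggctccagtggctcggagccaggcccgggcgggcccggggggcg
Slc2a1: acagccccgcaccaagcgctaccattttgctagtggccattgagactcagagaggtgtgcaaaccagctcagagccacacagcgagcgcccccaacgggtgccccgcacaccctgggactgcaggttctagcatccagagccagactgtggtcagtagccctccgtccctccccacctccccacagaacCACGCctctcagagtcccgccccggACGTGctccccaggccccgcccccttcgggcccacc
Ldhb: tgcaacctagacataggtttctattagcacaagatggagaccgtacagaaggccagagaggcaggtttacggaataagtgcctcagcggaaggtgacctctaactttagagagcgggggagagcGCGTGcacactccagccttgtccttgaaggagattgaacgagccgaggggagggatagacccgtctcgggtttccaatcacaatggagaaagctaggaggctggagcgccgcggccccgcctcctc
Vegfa: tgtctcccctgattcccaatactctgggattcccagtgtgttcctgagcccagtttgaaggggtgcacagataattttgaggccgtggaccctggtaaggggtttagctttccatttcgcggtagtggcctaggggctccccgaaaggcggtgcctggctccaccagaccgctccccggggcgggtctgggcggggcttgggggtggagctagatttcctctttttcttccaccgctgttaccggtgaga

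In the Ldha region the matches start 145, 144, 48, 47 and 34 bases before the start, where the first and the next pair are CACGTG read on each strand. Ankrd37 has 4 matches, 241, 155, 152 and 6 bases before its start, and P4ha2 has 3, at 107, 78 and 69. Slc2a1 has GCGTG on the other strand 61 bases before the start and ACGTG at 36, and Ldhb has its only match at 126. Ldha has another RefSeq start, before which 1 GCGTG stands. The other start of Vegfa, further into the gene than the printed one, has ACGTG and GCGTG, 211 and 218 bases before it.

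The smallest adjusted p values among the 32 genes belonged to Ldhb, Hk3 and Ldha. Lactate dehydrogenase interconverts pyruvate and lactate, with Ldha coding for the muscle-type subunit and Ldhb for the heart-type subunit. Ldhb read 12.11, 11.52 and 11.64 in controls and 12.63, 12.66 and 12.52 in null lungs. All null arrays were above the highest control, by at least 0.41. Its difference was 0.85 (SE 0.17, 95% interval 0.43 to 1.26), which is 1.80-fold, with a limma adjusted p of 0.1075. The other 3 probe sets of Ldhb gave 0.91, 0.97 and 0.92, each with the groups apart. Ldha read 12.61, 12.65 and 12.63 in controls, a spread of only 0.020 (SD), and 13.31, 13.13 and 12.99 in null lungs. The difference was 0.51 (SE 0.12, 95% interval 0.23 to 0.80, 1.43-fold, limma adjusted p = 0.1439). Within the shared title number, with 1 control and 2 null arrays, Ldhb differed by 1.07 and Ldha by 0.41. With samples of 1 title number as a random block, Ldhb passed (0.95, limma adjusted p = 0.0308), in a fit that called 1.58% of all genes higher. Ldhc, the isoform of the testis, was no member and differed by 1.11 (SE 0.23, limma adjusted p = 0.116) from a control mean of 6.62.

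Hexokinases trap glucose in the cell as glucose 6-phosphate, and their 3 isoforms gave different values. Hk3 read 7.66, 7.48 and 7.60 in controls and 8.0, 8.35 and 8.15 in null lungs. The groups were apart by 0.35, and the difference was 0.59 (SE 0.13, 1.50-fold, limma adjusted p = 0.128). Its other probe set gave 0.94 with the groups apart as well. Hk3 passed with array weights (0.66, limma adjusted p = 0.0296), which called 2.35% of all genes higher. Hk2, the hexokinase that insulin and HIF induce, read 10.39, 10.08 and 10.86 in controls and 10.89, 11.02 and 11.43 in null lungs. The lowest null array exceeded the highest control by only 0.038, and the difference was 0.67 (SE 0.24, limma adjusted p = 0.322). Hk1, the hexokinase of most tissues, differed by 0.18 (95% interval -0.23 to 0.59), and without null replicate 1 by 0.007. Unequal differences of the 3 isoforms were not tested against each other.

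The 8 other enzymes, of the steps between, had differences from 0.07 for Pfkl to 0.55 for Aldoc. Aldoa, the aldolase of muscle and most tissues, read 13.42, 13.25 and 13.30 in controls and 13.66, 13.57 and 13.49 in null lungs. Pgam1, a phosphoglycerate mutase, read 11.99, 11.96 and 11.96 in controls and 12.47, 12.28 and 12.07 in null lungs. Pfkp, the platelet-type phosphofructokinase, read 11.08, 11.06 and 10.67 in controls and 11.11, 11.30 and 11.10 in null lungs. In these 3 the null arrays all exceeded the controls, but by 0.071, 0.079 and 0.025, and their differences of 0.25, 0.30 and 0.23 had limma adjusted p values of 0.425, 0.419 and 0.597. Of the other 4 probe sets of Aldoa 3 had the groups apart too. Of the other 2 of Pfkp, with control means of 6.57 and 6.25, the first gave -0.04 with overlap. The second gave 0.61 with the groups apart. Tpi1 (0.35), Pgk1 (0.26), Aldoc (0.55), Eno2 (0.18) and Pfkl (0.07) had overlapping groups. Pfkl, the liver-type phosphofructokinase, had the widest overlap of the enzymes, with a 95% interval of -0.52 to 0.65.

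Null replicate 1 was the highest null array for 9 of the 13 enzymes, as it was for 51.0% of all genes, and control replicate 2 was the lowest control for 9 of them, beside 33.3% of all genes. Without null replicate 1 the differences of Tpi1, Pgk1 and Aldoc were 0.20, 0.18 and 0.25, and those of Ldha and Ldhb were 0.43 and 0.83. In null replicate 1 all 13 enzymes read above every control, in null replicate 2 this held for 9 and in null replicate 3 for 7. The share of all genes above every control was not counted for single arrays. For 22 genes of mitochondrial respiration the counts in null replicates 1 to 3 were 16, 4 and 1. For 14 macrophage and monocyte markers they were 12, 14 and 12.

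Transporters at both ends of the pathway, glucose entry and lactate export, had differences of the same sign as the enzymes. Slc2a3, the high-affinity glucose transporter GLUT3, read 9.98, 10.44 and 10.66 in controls and 11.03, 11.66 and 11.10 in null lungs. It had the largest difference of the 32 genes, 0.91 (SE 0.24, 95% interval 0.33 to 1.48, 1.88-fold), with a limma adjusted p of 0.190. Another bright probe set gave 0.89, and the 2 dim ones gave 0.04 and 0.41. Slc2a1, the basal glucose transporter GLUT1, read 11.36, 11.19 and 11.62 in controls and 11.80, 11.80 and 11.68 in null lungs. The groups were apart by 0.058 and the difference was 0.37 (SE 0.14, limma adjusted p = 0.358), with 0.45 and 0.50 from its other probe sets. For Slc16a3, the lactate exporter MCT4, the groups met: controls read 8.01, 7.51 and 7.98 and null lungs 8.51, 8.61 and 8.01, for a difference of 0.54 (limma adjusted p = 0.379). Slc16a1, the more widely used lactate carrier MCT1, was no member and gave 0.42 (SE 0.14, limma adjusted p = 0.280).

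**Figure D2:**
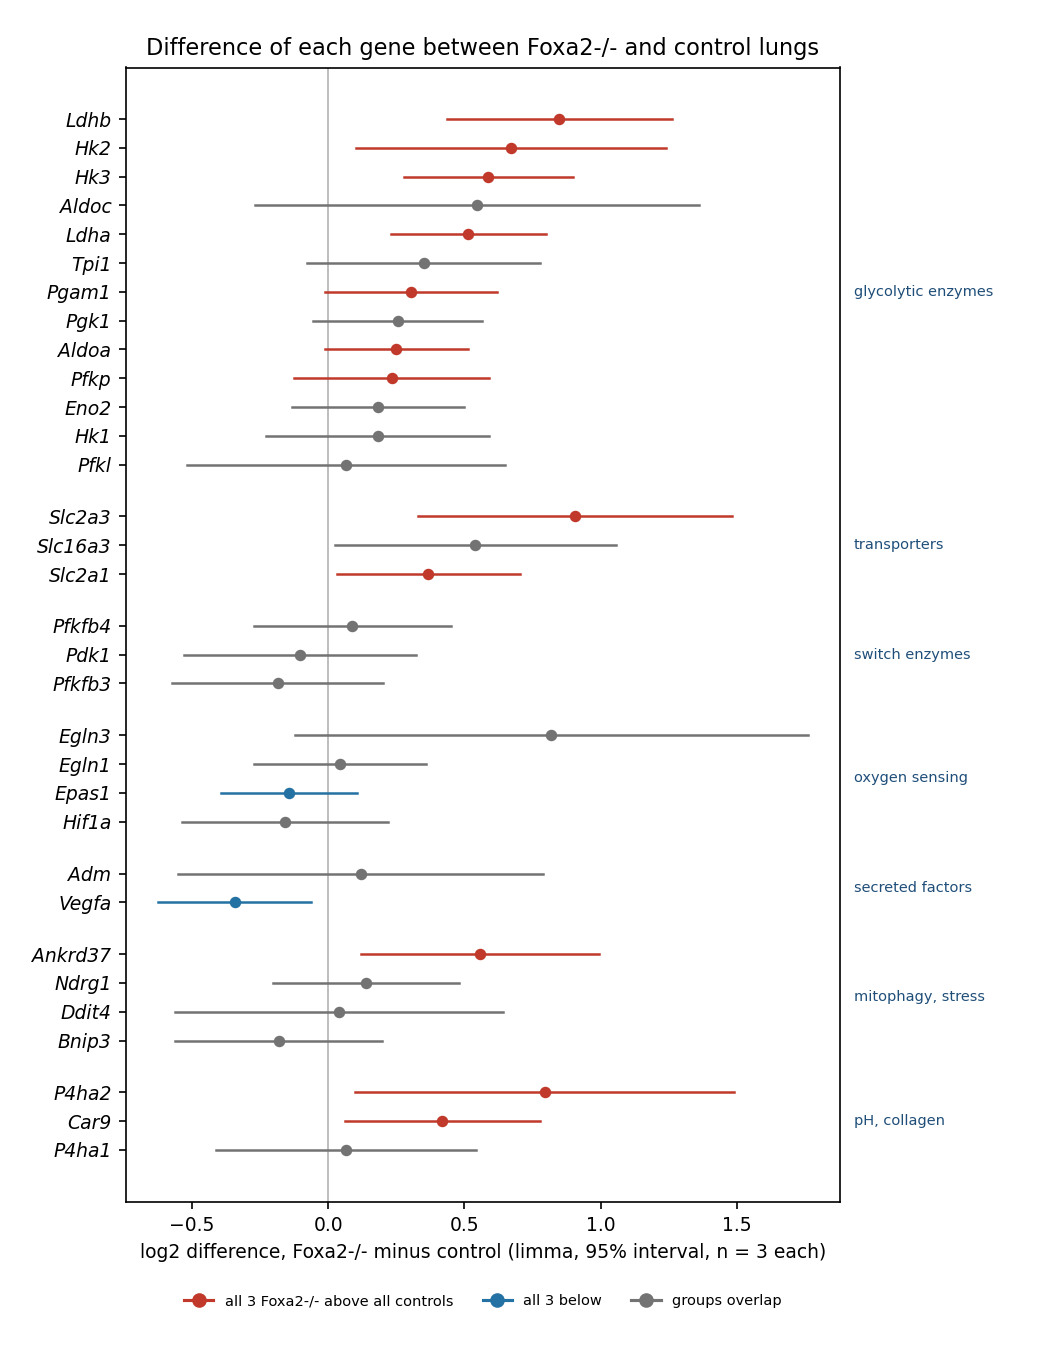
Log2 difference of each of the 32 genes, Foxa2-/- minus control, with its limma 95% interval (x axis; 3 arrays in each group), grouped by role on the y axis; red marks genes with every Foxa2-/- array above all controls, blue those with every one below and grey those whose groups overlap. All 16 enzymes and transporters lie right of 0, from 0.07 for Pfkl to 0.91 for Slc2a3, and Vegfa lies left of it at -0.34.

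Genes that steer pyruvate and the glycolytic flux had no common sign. Pfkfb3 makes the activator of phosphofructokinase and is a HIF target. It read 11.41, 11.21 and 11.03 in controls and 11.14, 10.78 and 11.17 in null lungs, a difference of -0.18 (95% interval -0.57 to 0.20, limma adjusted p = 0.694). Pfkfb4, its relative, read 9.89, 9.86 and 9.50 in controls and 9.97, 9.70 and 9.84 in null lungs, so the groups overlapped for both. Pdk1, a kinase that inhibits pyruvate dehydrogenase, differed by -0.10 (95% interval -0.53 to 0.32). Of its other 3 probe sets, 1 had every null array below all controls (8.75, 9.29 and 9.51 against 9.82, 9.75 and 9.72), with a difference of -0.58 (limma adjusted p = 0.390 over all probe sets).

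The 4 genes of oxygen sensing had 2 positive and 2 negative differences. Hif1a, the HIF-1 alpha subunit, read 12.61, 12.72 and 12.71 in controls and 12.21, 12.73 and 12.62 in null lungs. Only null replicate 1 was low, and without it the difference of -0.16 (95% interval -0.54 to 0.22) became -0.003. A dimmer probe set of Hif1a read 10.15, 9.33 and 9.65 in controls and 9.04, 9.27 and 8.80 in null lungs. Its difference of -0.68 (limma adjusted p = 0.383 over all probe sets) had the groups apart, unlike the other 3. Epas1 read 13.89, 13.99 and 13.97 in controls and 13.74, 13.80 and 13.89 in null lungs. The groups were apart by 0.006 only, and the difference was -0.14 (95% interval -0.39 to 0.11, limma adjusted p = 0.638). The HIF subunits are controlled largely through protein stability, which these arrays do not measure.

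Egln3, the prolyl hydroxylase most strongly induced by HIF, varied more than any other gene of the list among the controls. It read 7.82, 7.63 and 8.69 in controls and 8.97, 9.43 and 8.19 in null lungs. Null replicate 3 lay below control replicate 3, and the difference of 0.82 had a 95% interval of -0.12 to 1.76 (limma adjusted p = 0.471). Its other probe set gave 1.15, also with overlap. Egln1, the main oxygen sensor, differed by 0.04 (95% interval -0.27 to 0.36).

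Vegfa, the vascular growth factor that HIF induces and that alveolar epithelium makes in bulk, had the most negative difference of the 6 genes below 0. It read 11.83, 12.07 and 12.06 in controls and 11.72, 11.59 and 11.62 in null lungs. The highest null array was 0.11 below the lowest control, and the difference was -0.34 (SE 0.12, 95% interval -0.62 to -0.06, 0.789-fold), with a limma adjusted p of 0.305. Its other probe set gave -0.56, but there null replicate 1 (9.78) lay above control replicate 2 (9.75). Within the shared title number Vegfa differed by -0.47, and leaving out each array in turn gave -0.42 to -0.30. Adm, the vasodilator adrenomedullin, read 12.64, 12.66 and 11.74 in controls and 12.29, 12.36 and 12.74 in null lungs, with no common direction. Endothelial markers, which Vegfa maintains, had 12 of 14 negative differences and none called, with array means from 12.36 to 12.54 in controls and from 12.17 to 12.58 in null lungs. Their part in the Vegfa and Epas1 values was not tested.

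Among the 4 stress and mitophagy targets measured, the groups were apart for Ankrd37 and overlapped for the other 3. Ankrd37, an ankyrin repeat protein known as a sensitive HIF target, read 9.84, 9.48 and 9.44 in controls and 10.45, 10.01 and 9.97 in null lungs. The difference was 0.56 (SE 0.18, 95% interval 0.12 to 0.99, 1.47-fold, limma adjusted p = 0.283), with a gap of 0.13 between the groups. Bnip3, which marks mitochondria for removal, read 11.71, 11.59 and 11.81 in controls and 11.44, 11.32 and 11.81 in null lungs, a difference of -0.18. Ddit4, an inhibitor of mTOR signalling, and Ndrg1, a stress-induced gene, gave 0.04 and 0.14 with overlapping groups. All 4 are induced by HIF in many cells, and here 3 of them had an interval that holds 0.

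Car9 and P4ha2 complete the genes with separated groups. Car9, the membrane carbonic anhydrase that exports acid, read 6.12, 6.55 and 6.49 in controls and 6.89, 6.83 and 6.70 in null lungs, a difference of 0.42 (SE 0.15, limma adjusted p = 0.327). Its signal lay below the median of every array (7.85 to 7.91). P4ha2, a collagen prolyl hydroxylase, read 9.39, 9.55 and 8.79 in controls and 9.95, 9.64 and 10.53 in null lungs. Its difference of 0.79 (SE 0.29, limma adjusted p = 0.339) came with a gap of 0.089 between the groups. Its partner P4ha1 gave 0.06, and its other probe set gave -0.14.

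Beyond the list, related genes were counted in 7 further groups, and none of their genes was called. Of 15 other glycolysis genes 9 had a positive and 6 a negative difference (Pfkm, Pfkfb2, Eno3, Pgam2, Pgm2 and Slc2a4), so the shared sign of the listed enzymes and transporters did not extend to all genes of glycolysis. At an unadjusted p under 0.05, 5 were higher and 1 lower, beside 7.28% and 5.07% of all genes. In 7 the null arrays all exceeded the controls, beside 10.8% of all genes, and the median was 0.27. Among these 7 was Slc2a2, which was dim. All 12 heart and skeletal muscle markers were negative too (median -0.59). Their part in the 6 negative values was not tested. Pkm, pyruvate kinase of most tissues, gave 0.27 with the groups apart (limma adjusted p = 0.530). The 6 genes of the pentose phosphate pathway had a median of 0.25, with 5 positive. Taldo1, transaldolase, had the smallest p among them (0.40, limma adjusted p = 0.326). The 11 genes of pyruvate dehydrogenase with its kinases and phosphatases had a median of -0.17, with 9 negative. The 22 genes of mitochondrial respiration had a median of 0.05, with 17 positive, where 50.8% of all genes were positive. For these 2 groups the smallest p belonged to Pdk3, another pyruvate dehydrogenase kinase (0.52, limma adjusted p = 0.244), and to Cox5a, a cytochrome oxidase subunit (0.28, limma adjusted p = 0.360).

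Further genes of the hypoxia response were divided between both signs. Of 34 further hypoxia-induced genes measured 20 had a positive and 14 a negative difference, with a median of 0.04. At an unadjusted p under 0.05, 5 were higher and 1 lower, where 7.28% and 5.07% of all genes were. The smallest p belonged to Ak4, a mitochondrial adenylate kinase (0.57, SE 0.16, limma adjusted p = 0.219). Among 15 genes of the sensing machinery the median was -0.06 and none was under an unadjusted p of 0.05. Siah1a, a ubiquitin ligase of that machinery, was nearest at -0.32 (limma adjusted p = 0.491).

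Fbp1, fructose bisphosphatase of gluconeogenesis, had a difference larger than that of any of the 32 genes. It read 7.33, 6.03 and 8.24 in controls and 11.03, 11.22 and 10.37 in null lungs. All null arrays were above all controls, and the difference was 3.67 (SE 0.55, 12.7-fold) with a limma adjusted p of 0.0568. The 13 genes of gluconeogenesis and glycogen as a whole had a median of 0.01 with none called, and Pck1 and G6pc were dim.

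**Figure D3:**
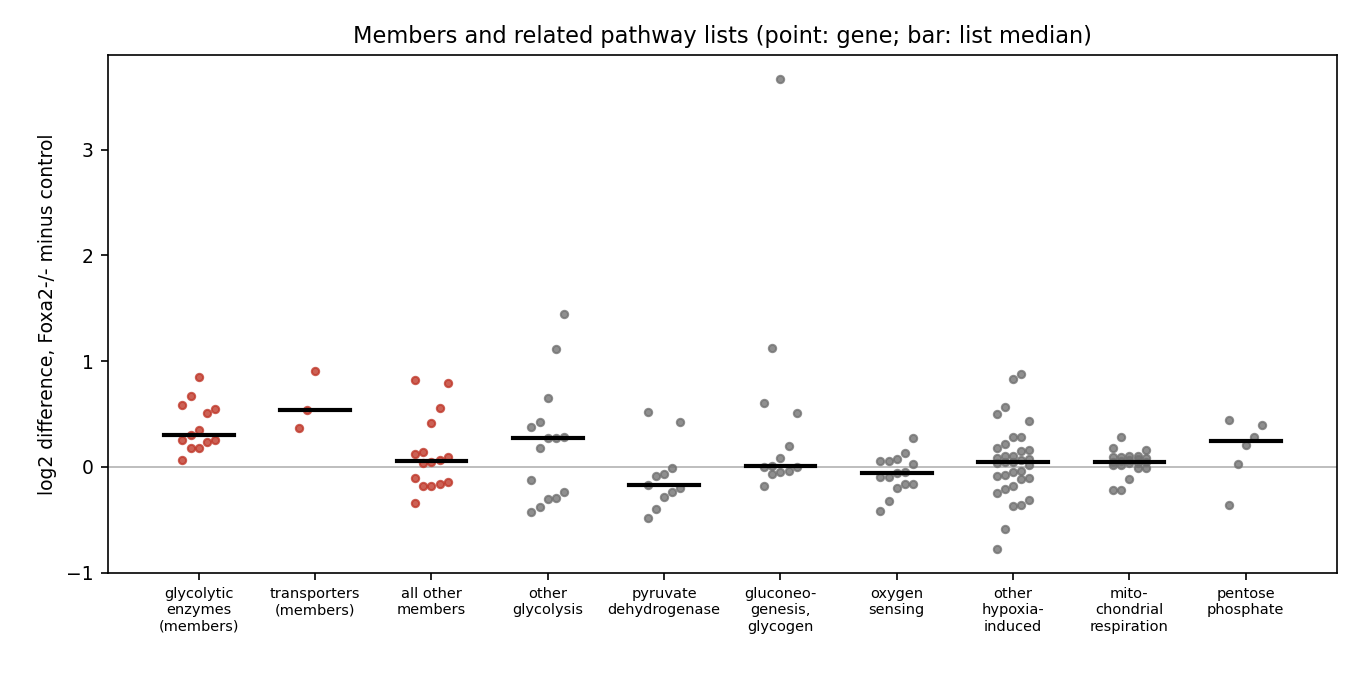
Log2 difference of each gene, Foxa2-/- minus control (y axis), for the glycolytic enzymes, the transporters and the remaining members (red) and for 7 related pathway groups (grey), where a point is a gene and a black bar the median of its group. The enzymes and transporters have medians of 0.31 and 0.54, the other hypoxia-induced genes one of 0.04, and the single point near 3.7 is Fbp1.

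Markers of macrophages, dividing cells and eosinophils had positive differences too. Of 14 macrophage and monocyte markers all had a positive difference and 3 rose (Cd68, Itgax and Trem2), and their array means ran from 10.54 to 10.66 in controls and from 11.32 to 11.92 in null lungs. None of the 14 was dim in these arrays. Of 9 markers of dividing cells all had a positive difference and none was called, with array means from 8.29 to 9.74 in controls and from 9.97 to 10.65 in null lungs, and control replicate 3 was the lowest. Eosinophil markers had 6 of 6 positive with 3 called (Prg2, Epx and Prg3), and array means of 6.31 to 6.90 against 7.79 to 8.88. Prg3 and Il5ra of that group were dim. The macrophage mean was highest in null replicate 2 and lowest of the null lungs in replicate 1, whereas the enzyme mean was highest in replicate 1 (11.30) and read 11.12 and 11.03 in replicates 2 and 3. The transporters had their highest mean, 10.69, in null replicate 2. Lung epithelial markers had 5 of 10 positive differences and none called, and 4 red cell markers were all positive with none called, with Hba-a1 and Epb42 dim. The red cell mean was highest in null replicate 1 (9.22), as the enzyme mean was, and read 7.55 and 7.96 in null replicates 2 and 3 and from 7.42 to 8.51 in controls. Among the null lungs, replicate 1 also had the highest means of endothelial markers (12.58), epithelial markers (13.83) and immediate-early genes (10.75). Means of dividing-cell, eosinophil and lymphocyte markers were highest in null replicate 2. Those of neutrophil, fibroblast and muscle markers were highest in null replicate 3. Neutrophil, lymphocyte, fibroblast and muscle markers and immediate-early genes had none called, with medians of 0.29, 0.76, -0.14, -0.59 and -0.07. The part of other cells in the values of the enzymes and transporters was not tested.

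**Figure D4:**
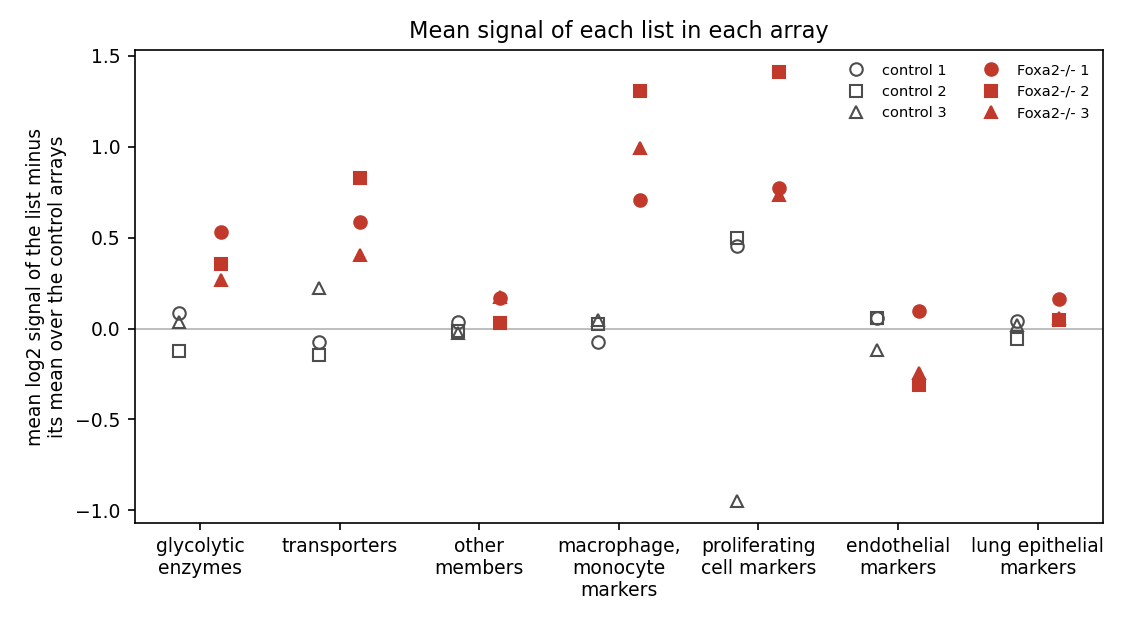
Mean log2 signal of each group of genes in each array minus its mean over the 3 controls (y axis), for the enzymes, the transporters, the other members and 4 marker groups (x axis), with open grey symbols for controls and red ones for Foxa2-/- lungs, shaped by replicate. The red symbols lie above all grey ones for the enzymes, transporters, macrophage markers, dividing-cell markers and, narrowly, lung epithelial markers, and the control far below the others in the dividing-cell group is control replicate 3.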

How the data were processed

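The deposited table holds log2 values of 45101 probe sets in 6 arrays, made by the authors with RMA per the submitters' processing notes (no version or settings in the sources used here). Deposited values ran from 2.36 to 14.88, as log2 values do. RMA gives all arrays 1 distribution, so a shift shared by most genes is removed. Leaving out 64 Affymetrix control probe sets, 45037 were tested, of which 34945 had 1 gene symbol. The brightest of these over 6 arrays stood for each of 18193 genes, with no filter. Null and control were fitted over all genes in R 4.3.3 with limma 3.58.1 (lmFit, then eBayes, null minus control, no covariate, two-sided, Benjamini-Hochberg adjusted p under 0.05, 95% intervals). Other probe sets were fitted and adjusted over all probe sets. Precision is limited by having 3 arrays in each group. The test was checked on simulated arrays with known differences, each larger than that of any listed gene. Its power at the sizes reported here was not measured.

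The members and gene lists were chosen with earlier results of these data known. Values in all arrays are given for Hif1a, Epas1, members with separated groups and the 2 smallest p values of each role. From each related group the gene with the smallest p is named. Slc16a3, Ldhc, Slc16a1, Pkm and the Pdk1 and Hif1a probe sets with separated groups were added after their values were seen. Promoters came from RefSeq (GRCm38.p6). No protein sequences were used here. Alternatives were median centring, cyclic loess, filters on dim genes, eBayes with trend and robust, array weights, a fixed or random block on the title number (statmod 1.5.0) or only the samples sharing it, each array left out, probe sets of a gene averaged, and an adjusted p under 0.1.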

Additional observations from a re-analysis of the deposited data

Results flagged for a closer look

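Gapdh, the glycolytic enzyme that oxidises glyceraldehyde 3-phosphate, has no single-gene probe set in the annotation, but the array's own Gapdh control probe sets, which stood outside the tests, read higher in the null lungs. The 3-prime set read 13.76, 13.76 and 13.75 in controls and 14.02, 14.00 and 13.88 in null lungs, a difference of 0.20. The middle set gave 0.40 (0.395), from 13.05 ± 0.06 to 13.45 ± 0.11, and the 5-prime set 0.42 (0.421), from 12.60 ± 0.09 to 13.02 ± 0.10 (log2, SD, n = 3 each). In all 3 sets every null array was above every control, and no test was run on them. The 3-prime minus 5-prime difference, a measure of RNA integrity, ran from 1.06 to 1.23 in controls and from 0.91 to 0.97 in null lungs, and its part in the values of the enzymes was not tested.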

How the results depend on the processing

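No gene of the 32 was called lower under any alternative. The count called higher was 0 in each except array weights (1, Hk3) and the title number as a random block (1, Ldhb), and the cause was not tested. At an adjusted p under 0.1 it was 0. The median of the differences was 0.16 over the 26 genes brighter than the median gene, and 0.20 to 0.29 over all 32 under the other alternatives. Positive differences numbered 21 to 26 of 32, or 20 of those 26. The count with every null array above all controls was 12 to 16 with an array left out, beside 14.3% to 17.5% of all genes, and the count below was 2 to 3, beside 12.0% to 19.1%. Over the 3 samples that share a title number, with 1 control, the counts were 19 and 6, where 34.7% and 40.9% of all genes separate too. Median centring gave 13 above and 1 below, beside 9.6% and 9.0%. The title number as a fixed block equals that restriction. Among the 20 named members, signs reversed for Pfkp in a second probe set (-0.039) and for Pfkfb4 with array weights (-0.018). Within the shared title number they reversed for Pfkfb4 (-0.089) and Adm (-0.105). Members not named reversed too, among them Ddit4, Egln1 and P4ha1 with array weights (-0.081, -0.055 and -0.065) and Pdk1 within the shared title number (0.034). With array weights, 6 of the 16 genes that are neither enzymes nor transporters were positive. With an array left out, Pfkfb4 ran from -0.035 to 0.159 and Adm from -0.185 to 0.275. Of the alternative values of the 20 named members and Foxa2, 339 kept direction and side of the threshold, 9 reversed and 7 passed it (Foxa2 in 5, at -5.12 to -4.30). No paired analysis was possible because the labels give no replicate numbers that pair the groups.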
